A study of Mus musculus with 6 samples.

Results

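Chromatin accessibility was followed at 10 genes of radial glia and astrocytes in mouse neural progenitors that overexpressed Nr6a1 and in progenitors that carried a control virus. The genes were Fabp7, Slc1a3, Aldh1l1, Tnc, Aqp4, Gfap, S100b, Aldoc, Hopx and Zbtb20. An accessible interval was assigned to one of them when its midpoint lay inside the gene, or when the nearest end of any protein-coding gene was an end of that gene within 300 kb. These 10 genes held 61 of the 52223 intervals in the deposited table, and 60 of the 61 passed the filter on low counts. The other one, at Slc1a3, was left untested.

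The study used ATAC-seq, in which the transposase Tn5 cuts open chromatin and the cut fragments are sequenced. The Nr6a1OE group (3 libraries, genotype given as Nr6a1+overexpression) received a lentivirus encoding Nr6a1-2A-mScarlet3. The mScarlet group (3 libraries, genotype given as Control) received a lentivirus encoding the red fluorescent protein mScarlet3 alone. Both groups came from mouse embryonic stem cells differentiated in N2B27 medium, plated with bFGF, with 5 µM CHIR99021 on day 2, then 100 nM retinoic acid and 10 nM Smoothened agonist from day 3, and only the agonist after day 5. Cells were transduced at day 5, and 50000 mScarlet3-positive cells per library were collected by sorting at day 9. The labels name neither the stem cell line nor the promoter that drives the viral genes, and do not say whether the libraries of a group came from separate cultures. The p-values therefore measure the spread between these libraries, which may be technical. Libraries held 6857763 to 8030029 fragments in intervals.

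Radial glia are the stem cells that line the embryonic neural tube. They first make neurons and later, around and after the switch to gliogenesis, astrocytes and other glia. Some genes of this set, such as Fabp7 and Slc1a3, are active in radial glia already, while Gfap, Aqp4 and S100b mark mature astrocytes. Nr6a1 (germ cell nuclear factor) belongs to the orphan nuclear receptors, acts mainly as a repressor and binds direct repeats of AGGTCA with no spacer.

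The start regions of 4 of the genes are printed to show what lies under the gene-start intervals described next, and to show a start with none. They come from RefSeq (GRCm38.p6, the coordinates of mm10), run from 250 bases before to 50 bases after the annotated start, and are written 5′ to 3′ on the strand of the gene. Capitals mark, on either strand, the nuclear receptor core AGGTCA, the NFI core TTGGC and the letters TATAAA, at any distance from the start. The interval over the Slc1a3 start ends at 8710970, so the upstream part of its printed window lies outside that interval.
Slc1a3, chr15:8710758-8711057, minus strand: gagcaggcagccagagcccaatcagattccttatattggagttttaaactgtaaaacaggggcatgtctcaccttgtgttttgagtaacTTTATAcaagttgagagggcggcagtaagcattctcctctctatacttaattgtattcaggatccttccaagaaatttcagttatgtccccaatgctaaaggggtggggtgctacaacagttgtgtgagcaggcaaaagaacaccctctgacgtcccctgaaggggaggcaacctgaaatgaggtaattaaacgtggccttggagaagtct
Fabp7, chr10:57784673-57784972, plus strand: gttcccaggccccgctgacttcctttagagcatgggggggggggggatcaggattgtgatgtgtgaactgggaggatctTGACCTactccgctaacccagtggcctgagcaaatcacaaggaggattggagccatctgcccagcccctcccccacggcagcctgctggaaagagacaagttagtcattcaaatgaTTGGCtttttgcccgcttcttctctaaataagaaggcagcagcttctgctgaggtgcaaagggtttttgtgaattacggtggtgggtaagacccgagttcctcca
Aldh1l1, chr6:90550543-90550842, plus strand: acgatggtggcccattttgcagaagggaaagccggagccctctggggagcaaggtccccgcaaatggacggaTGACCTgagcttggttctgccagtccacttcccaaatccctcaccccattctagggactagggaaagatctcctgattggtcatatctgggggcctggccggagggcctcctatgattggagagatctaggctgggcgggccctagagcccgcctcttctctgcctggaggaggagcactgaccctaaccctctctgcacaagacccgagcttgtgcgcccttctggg
Gfap, chr11:102897151-102897450, minus strand: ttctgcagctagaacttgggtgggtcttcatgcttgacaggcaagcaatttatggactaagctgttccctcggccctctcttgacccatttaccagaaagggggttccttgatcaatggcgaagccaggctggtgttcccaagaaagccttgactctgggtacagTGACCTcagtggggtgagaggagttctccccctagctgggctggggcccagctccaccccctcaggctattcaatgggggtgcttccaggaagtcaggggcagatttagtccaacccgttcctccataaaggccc

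The RefSeq table held start regions for 9 of the 10 genes, 12 windows in all, since Tnc, Aldoc and Hopx each had a pair of annotated starts. The Zbtb20 window was that of a start inside the gene, at 43247284, and the start at the outer end of Zbtb20 had no window. The core AGGTCA was found once each in the windows of Fabp7, Aldh1l1 and Gfap, that is in 3 of 12, against 16.3% of 32851 windows of the same length. None of the 12 held the extended core TCAAGGTCA (0.423% of all windows) or AGGTCA repeated directly with no spacer (0.00609%), searched on both strands. The core AGGTCA lies within both longer motifs. TTGGC was in 5 of 12 windows (46.7% of all windows), with 4 copies in the S100b window. TATAAA was in 3 of 12 (13.6%), the Slc1a3 window among them. In the Slc1a3 window it lies on the opposite strand, at bases 90 to 95. Both windows of Tnc hold the same TATAAA, because they overlap. A match of letters is a description of the window, not evidence that a factor binds there.

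Where an interval lay over the start of one of these genes, it was mostly weak beside other gene starts with an interval. Taking the outermost annotated start, an interval lay over the start of 7 of the 9 genes with a known strand, against 56.8% of 17491 protein-coding genes treated the same way. CPM are counts scaled to the library size after TMM. Accessibility per length, averaged over the 6 libraries, was 83.1 CPM per kb over the start of Zbtb20, which encodes a zinc finger repressor of glial and neuronal development. That start ranked at a percentile of 99.0 among all gene starts with an interval. The other 6 starts ranked at a percentile of 16.0 or lower. They held 15.2 CPM per kb at Slc1a3, the gene of the glial glutamate transporter GLAST, and 14.8 at Fabp7, the brain lipid-binding protein of radial glia. At Aldoc, the brain form of aldolase, the start held 11.01 CPM per kb, and at Aldh1l1, a folate enzyme widely used as an astrocyte marker, 8.35. The starts of Tnc, which encodes the matrix glycoprotein tenascin-C, and of Hopx, a homeodomain protein of outer radial glia in primates, held 5.53 and 3.49 CPM per kb. The median over all gene starts with an interval was 34.7 CPM per kb. Among all intervals, the start intervals of Slc1a3, Fabp7, Aldoc and Aldh1l1 ranked at percentiles of 69.55, 69.05, 61.75 and 53.08. Those of Tnc and Hopx ranked at 34.96 and 12.58.

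**Figure D1:**
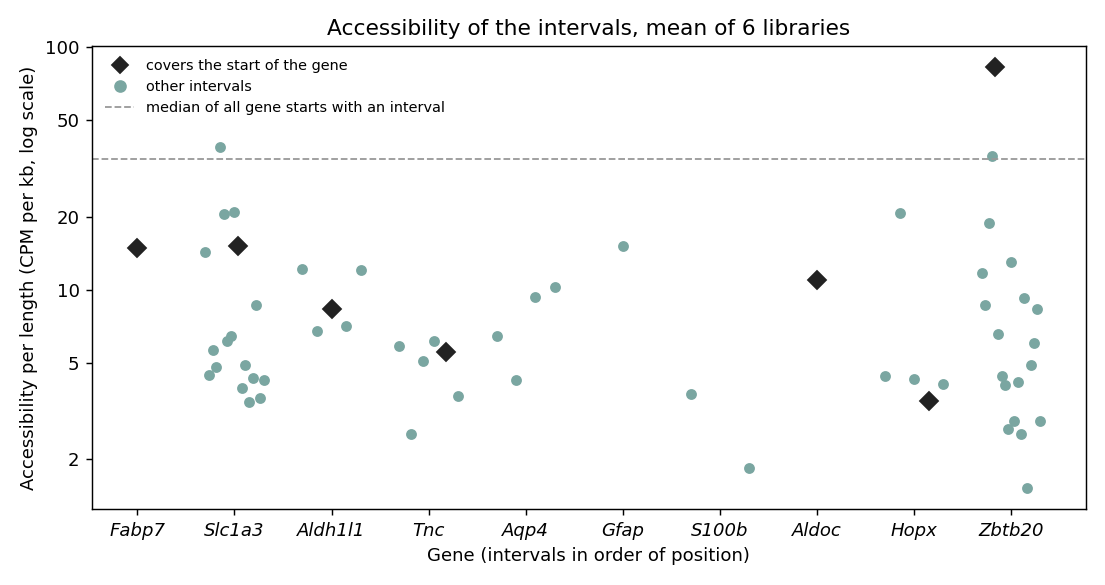
Accessibility per length (CPM per kb, log scale, mean of 6 libraries) of the 61 intervals by gene, with intervals in order of position. Diamonds cover the start of the gene and circles do not. The dashed line is the median of all gene starts with an interval, 34.7 CPM per kb. The start of Zbtb20 lies above it and the other 6 starts lie below it.

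The plot of accessibility per length shows no start interval at Gfap, which encodes the intermediate filament of astrocytes, or at S100b, which encodes a calcium-binding protein. The single Gfap interval (mm10, chr11:102892827-102893788) lay inside the gene, 3.89 kb downstream of its start, and held 15.1 CPM per kb. S100b had a broad and weak interval of 2339 bp over its far end (1.83 CPM per kb, a percentile of 0.278 among all intervals) and one 5.51 kb outside the gene. Aqp4, the water channel of astrocyte endfeet, had no interval over either of its ends, and its strand was not in the table used. Its 4 intervals held 4.24 to 10.3 CPM per kb.

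Both annotated starts of Hopx had an interval, and the internal one was the more accessible. The interval at chr5:77094245-77095426 covered the annotated start at 77095267 and held 20.8 CPM per kb, against 3.49 CPM per kb for the interval over the upstream start at 77115123. The windows at these starts held 21 CpG dinucleotides at the internal start and 8 at the upstream one, and the median over all windows was 7. Aldoc had an interval over its upstream start at 78323073 and none over the window of its second start at 78324198. The annotated Zbtb20 start inside the gene, at 43247284, had no interval either.

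Across the set, the median interval was 962 bp long and lay at a percentile of 39.1 among all intervals by accessibility per length. Fewer than 5 CPM were found in 30 of the 61 (49.2%), against 38.1% of all intervals. Slc1a3 had 17 of the 61 and Zbtb20 19. Of the 14 Zbtb20 intervals inside the gene, 12 lay nearer to the end of Tigit that lies within its span than to an end of Zbtb20. No interval outside these genes whose nearest end was a member's lay beyond the 300 kb limit. The farthest such interval was 208.9 kb from Zbtb20.

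Markers of other cell types put the sorted cells in context. All 7 neural progenitor genes with a known strand (Sox1, Sox2, Pax6, Olig2, Nkx6-1, Rfx4 and Notch1) had an interval over their start, as did 4 of 6 genes of postmitotic neurons. The 7 progenitor starts ranked at percentiles of 9.27 (Pax6) to 89.6 (Sox1) among all gene starts with an interval. The starts of the pluripotency genes Pou5f1, Nanog and Zfp42 had none, and 1 of 5 starts of microglia and blood genes had one. An interval also lay over the start of 2 of 3 oligodendrocyte genes, 1 of 2 endothelial genes and 2 of 4 neural crest and mesoderm genes. Over all protein-coding genes the share was 56.8%. By edgeR's adjusted p under 0.05, 1.26% of all tested intervals were lower and 0.469% higher in Nr6a1OE. Of the 128 tested intervals of the progenitor list 4 were lower and 1 higher, and its sum was 3223 to 3258 CPM in Nr6a1OE and 3237 to 3273 CPM in mScarlet. Summed over their intervals, postmitotic neuron genes held 715.6 to 749.6 CPM in Nr6a1OE and 741.8 to 767.3 CPM in mScarlet, and 1 of their 55 intervals was lower. The intervals of oligodendrocyte genes summed to 329.6 to 339.1 CPM in Nr6a1OE and 320.6 to 326.5 CPM in mScarlet, with no overlap, and none of the 25 tested passed. No interval passed in the lists of microglia and blood (221.2 to 227.6 CPM in Nr6a1OE, 219.4 to 221.9 CPM in mScarlet), neural crest and mesoderm (483.0 to 507.2 CPM in Nr6a1OE, 482.5 to 499.6 CPM in mScarlet) or pluripotency (17.9 to 21.6 CPM in Nr6a1OE, 17.6 to 19.5 CPM in mScarlet). Of 19 endothelial intervals 1, inside Kdr, was lower (sums of 156.7 to 160.4 CPM in Nr6a1OE and 152.9 to 158.5 CPM in mScarlet). The part of cell composition in the results that follow was not tested. In bulk samples, fewer cells with an open site and less opening per cell cannot be told apart.

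Overexpression of Nr6a1 left most of the set without a detectable change. Of the 60 tested intervals, 1 was lower in Nr6a1OE and 0 were higher at an adjusted p under 0.05 by edgeR's quasi-likelihood test over all 51637 tested intervals. Across the genome 1.26% of intervals were lower and 0.469% higher, so the share of 1.67% at these genes was near the background. At an unadjusted p under 0.05, 7 were lower (11.7%, against 6.87% of all intervals) and 1 was higher (1.67%, against 5.73%). The groups did not overlap at 8 intervals that were lower (13.3%, against 8.73% of all intervals) and at 1 that was higher (1.67%, against 7.89%). The median log2 fold change was -0.041, against 0.0038 over all tested intervals, and -0.017 without Slc1a3. It was -0.0152 without mScarlet 1, -0.0334 without mScarlet 2 and -0.0197 without mScarlet 3. Without Nr6a1OE 1, 2 or 3 it was -0.0372, -0.05 and -0.0262. DESeq2 called 0 of the 60 in either direction, against 0.188% of all intervals lower and 0.00581% higher. The called interval belonged to Slc1a3, as did 4 of the 7 lower ones at the unadjusted threshold.

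**Figure D2:**
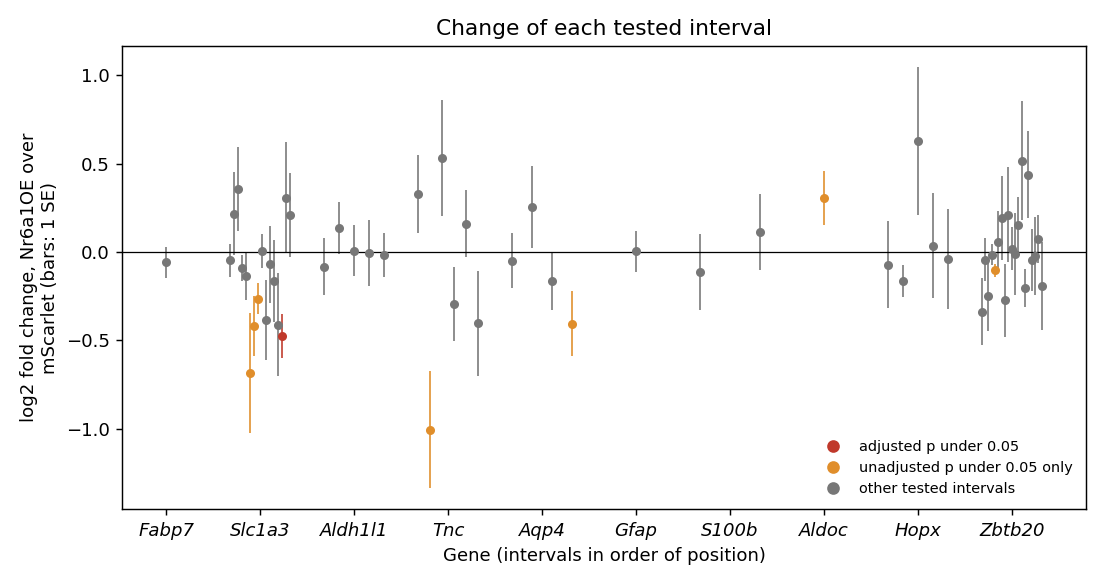
Log2 fold change of Nr6a1OE over mScarlet for the 60 tested intervals, by gene and in order of position, with bars of 1 SE. Red marks an adjusted p under 0.05, orange an unadjusted p under 0.05 only. The 1 red point, at -0.48, is at Slc1a3, and the lowest point, at -1.01, is a weak Tnc interval that did not pass.

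Slc1a3 lies on the minus strand of chromosome 15 (8634124 to 8710807) and had 17 intervals. Its called interval, chr15:8780543-8782052, was outside any protein-coding gene and 70.5 kb upstream of the start. It held 12.2, 9.61 and 10.9 CPM in Nr6a1OE 1, 2 and 3, against 15.5, 14.7 and 15.2 CPM in mScarlet 1, 2 and 3. All 3 Nr6a1OE libraries were below all 3 mScarlet libraries. The fold change was -0.48 on the log2 scale (SE 0.12, edgeR adjusted p = 0.0132). Leaving out mScarlet 1, mScarlet 3, Nr6a1OE 2 or Nr6a1OE 3 ended the call (edgeR adjusted p = 0.0765, 0.0596, 0.136 and 0.0602). DESeq2 did not make it (adjusted p = 0.597), nor did an edgeR likelihood ratio test with an assumed variation of 10% (adjusted p = 0.301).

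At the start of Slc1a3 no difference was detected. The interval over the start, chr15:8709580-8710970, which reaches into the printed window, held 21.6, 20.3 and 21.3 CPM in Nr6a1OE and 19.6, 22.6 and 21.0 CPM in mScarlet. The Nr6a1OE values lay within the mScarlet range. Its log2 fold change was 0.0053 (SE 0.097, edgeR adjusted p = 0.991), a value that took either sign when a library was left out.

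Inside the gene, 3 of the 4 intervals were lower at an unadjusted p under 0.05 and none passed after adjustment. The most accessible of these 3, chr15:8659357-8660549, 50.9 kb downstream of the start, held 21.6, 25.0 and 22.0 CPM in Nr6a1OE and 27.0, 24.6 and 30.2 CPM in mScarlet. Nr6a1OE 2 lay above mScarlet 2, so the groups overlapped. The log2 fold change was -0.26 (SE 0.089, edgeR adjusted p = 0.105). The interval at chr15:8644157-8645214, 66.1 kb downstream, averaged 5.84 ± 1.43 CPM in Nr6a1OE and 7.77 ± 0.964 CPM in mScarlet (SD, n = 3 each), or -0.42 on the log2 scale (SE 0.17, edgeR adjusted p = 0.232). The third, chr15:8642096-8642407, was weak and is named here after its values were seen. It held 1.28, 2.40 and 0.757 CPM in Nr6a1OE and 2.74, 2.04 and 2.25 CPM in mScarlet, groups that overlapped, and had the lowest log2 fold change at Slc1a3, -0.68 (SE 0.34, edgeR adjusted p = 0.379). The most accessible Slc1a3 interval, chr15:8629135-8630049, lies 4.53 kb past the far end of the gene. It held 33.7, 35.5 and 34.3 CPM in Nr6a1OE and 36.6, 37.2 and 36.5 CPM in mScarlet, groups that did not overlap but differed by only -0.091 on the log2 scale (SE 0.075, edgeR adjusted p = 0.673).

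**Figure D3:**
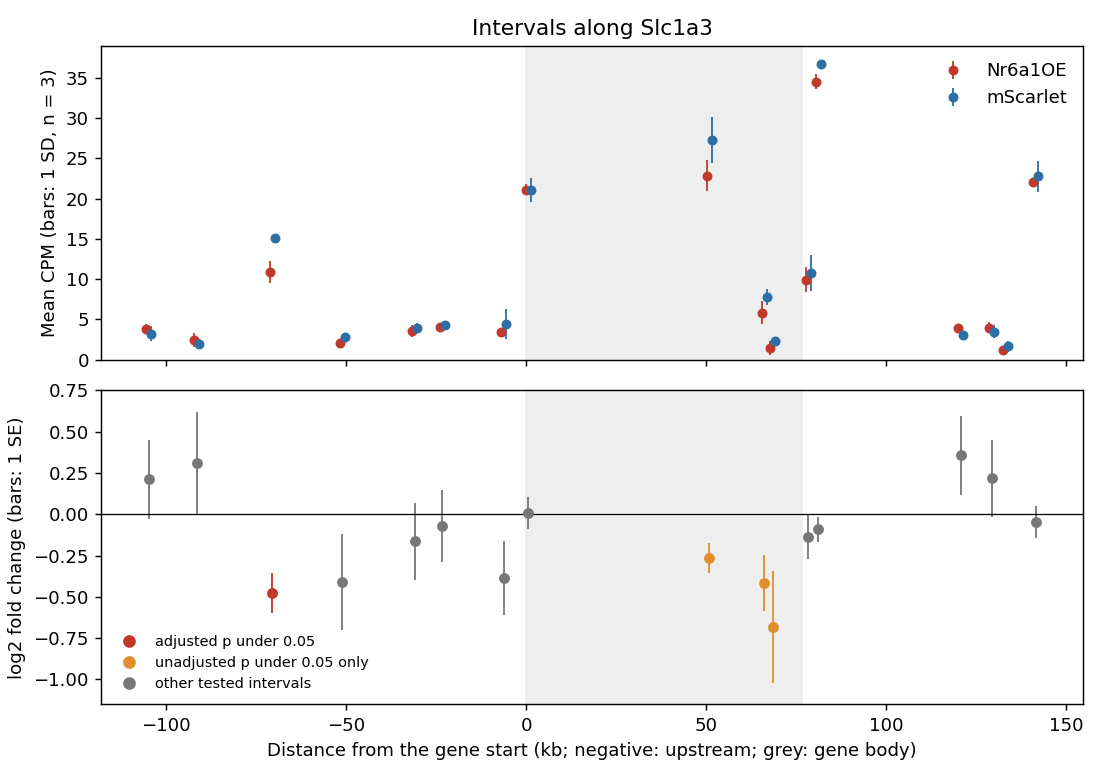
Intervals along Slc1a3 by distance from the start of the gene (kb, negative upstream, grey band the gene body). The upper panel gives mean CPM with 1 SD (n = 3 each, 17 intervals) and the lower panel the log2 fold change with 1 SE (16 tested intervals). The called interval 70.5 kb upstream is red, and the interval over the start lies at 0.0053.

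To give each gene 1 value, counts were summed over its intervals, and the sums of 16490 genes were tested in the same way. By this measure Slc1a3 was the one member of the set that passed. Its sum was 157.7, 161.8 and 152.5 CPM in Nr6a1OE 1, 2 and 3, against 170.0, 168.7 and 179.7 CPM in mScarlet 1, 2 and 3, with no overlap. On the log2 scale the change was -0.14 (SE 0.036, edgeR adjusted p = 0.0158), a smaller change than at the called interval. Genome-wide 1.06% of gene sums were lower and 0.873% higher. The groups were apart, as at Slc1a3, at 9.14% of all gene sums, and apart the other way at 7.71%. At an unadjusted p under 0.05, Slc1a3 and Zbtb20 were lower (6.58% of all gene sums) and Aldoc higher (6.38%). Of the difference of -15.5 CPM between the group means, the called interval made up 27.4%, the 4 intervals inside the gene 46.3% and the other 12 intervals 26.3%.

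The Slc1a3 sum no longer passed without its called interval (log2 fold change -0.11, edgeR adjusted p = 0.114) or with the gene body alone (-0.19, adjusted p = 0.0825). It was also lost without mScarlet 3, Nr6a1OE 1 or Nr6a1OE 3 (edgeR adjusted p = 0.246, 0.0646 and 0.219) and with an assumed variation of 10%. DESeq2 did not make the call either (adjusted p = 0.142, among the 1464 gene sums that DESeq2 gave an adjusted p). The Slc1a3 sum was negative in each of these fits. Over the 6 libraries, the summed accessibility of Stag2 (Pearson r = 0.993), Pfn2 (0.984) and Wdr7 (0.984) was most like that of Slc1a3 among 4368 genes compared. All of these values share library depth and scaling, and none of the 3 genes shares an interval with Slc1a3. The correlations also include the difference between the groups. The sums of Stag2 (-0.15) and Wdr7 (-0.16) were themselves lower in Nr6a1OE (edgeR adjusted p = 0.0211 and 0.0125). Pfn2 (-0.074) did not pass (edgeR adjusted p = 0.477).

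**Figure D4:**
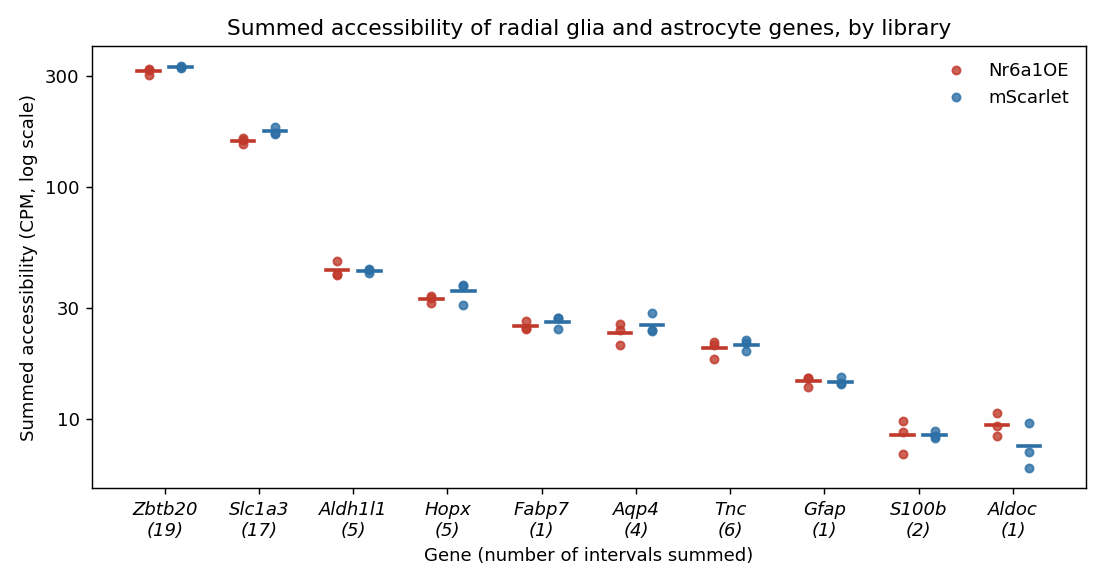
Summed accessibility (CPM, log scale) of the 10 genes in each library, with Nr6a1OE in red and mScarlet in blue. Points are libraries and lines are means (n = 3 each). The groups do not overlap at Slc1a3 and Zbtb20, both lower in Nr6a1OE, and they overlap at the other 8 genes. Of all gene sums, 9.14% were apart and lower in Nr6a1OE and 7.71% were apart and higher.

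The other radial glia genes did not pass. Fabp7 had a single interval, over its start (chr10:57783656-57785388), with 24.6, 24.4 and 26.5 CPM in Nr6a1OE and 24.4, 27.25 and 27.1 CPM in mScarlet. The ranges overlapped. The log2 fold change of the sum was -0.054 (SE 0.086, edgeR adjusted p = 0.858), with a 95% interval, from the SE, of -0.22 to 0.11. For Hopx the sum was 33.1, 33.91 and 31.67 CPM in Nr6a1OE and 37.79, 37.45 and 31.1 CPM in mScarlet, where mScarlet 3 was the lowest of the 6. Its log2 fold change was -0.10 (95% interval -0.25 to 0.048, edgeR adjusted p = 0.626).

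Tnc averaged 20.2 ± 1.72 CPM in Nr6a1OE and 20.9 ± 1.10 CPM in mScarlet (SD, n = 3 each), which is -0.045 on the log2 scale (95% interval -0.23 to 0.14, edgeR adjusted p = 0.901). Within it, the weak interval chr4:63982546-63983358, inside the gene, held 1.85, 1.41 and 0.883 CPM in Nr6a1OE and 2.33, 3.21 and 2.75 CPM in mScarlet. These groups did not overlap. Its log2 fold change of -1.01 (SE 0.33) was the largest in size among the 60 and did not pass (edgeR adjusted p = 0.0916). The interval over the start of Tnc stood at 0.16 (SE 0.19, edgeR adjusted p = 0.793).

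Zbtb20 had the highest summed accessibility of the set, spread over 19 intervals in and around a gene of 758.7 kb. The sum was 317.2, 321.1 and 301.4 CPM in Nr6a1OE and 329.5, 327.1 and 322.9 CPM in mScarlet. All Nr6a1OE libraries were below all mScarlet libraries, as at 9.14% of all gene sums (7.71% were apart the other way), and the log2 fold change of -0.058 did not pass (95% interval -0.11 to -0.0044, edgeR adjusted p = 0.326). Its start interval (chr16:42874610-42876431) held 147.0, 147.2 and 143.8 CPM in Nr6a1OE and 160.5, 154.0 and 155.7 CPM in mScarlet. The groups were apart there too, by -0.10 on the log2 scale (SE 0.038, edgeR adjusted p = 0.163). Over the gene body alone the log2 fold change of the sum was 0.009.

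Genes of mature astrocytes did not pass in either direction. At Gfap the only interval held 15.1, 15.0 and 13.8 CPM in Nr6a1OE and 14.1, 14.3 and 15.1 CPM in mScarlet. The groups overlapped, and the log2 fold change of 0.0073 for the sum (95% interval -0.22 to 0.23, edgeR adjusted p = 0.990) changed sign with several settings. S100b averaged 8.57 ± 1.39 CPM in Nr6a1OE and 8.55 ± 0.287 CPM in mScarlet (SD, n = 3 each), a log2 difference of 0.0040 (95% interval -0.29 to 0.30, edgeR adjusted p = 0.995). Aqp4 summed to 25.7, 24.2 and 20.8 CPM in Nr6a1OE and 28.5, 23.9 and 24.1 CPM in mScarlet, a log2 fold change of -0.12 (95% interval -0.29 to 0.057, edgeR adjusted p = 0.630). One of its 4 intervals, chr18:15420299-15420855, was apart between groups, with 4.91 ± 0.423 CPM in Nr6a1OE and 6.51 ± 1.02 CPM in mScarlet (SD, n = 3 each), and did not pass (log2 fold change -0.41, SE 0.19, edgeR adjusted p = 0.320).

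Aldh1l1, Aldoc and Gfap lie on chromosomes that moved slightly as a whole. The median log2 fold change was -0.031 over the intervals of chromosome 6, which holds Aldh1l1, and 0.058 over those of chromosome 11, which holds Aldoc and Gfap. Aldh1l1 averaged 43.7 ± 3.53 CPM in Nr6a1OE and 43.5 ± 0.853 CPM in mScarlet (SD, n = 3 each), a log2 difference of 0.014 (95% interval -0.12 to 0.15, edgeR adjusted p = 0.957). Removing the chromosome median gave 0.051. The Aldoc interval over the start held 9.38, 10.6 and 8.45 CPM in Nr6a1OE and 6.16, 9.62 and 7.24 CPM in mScarlet, where mScarlet 2 lay above Nr6a1OE 1 and 3. It had the highest log2 fold change among the 10 sums, 0.31, and did not pass (95% interval 0.013 to 0.61, edgeR adjusted p = 0.357). It was 0.177 without mScarlet 1 and 0.492 without mScarlet 2. With the chromosome median removed it was 0.26 (edgeR adjusted p = 0.510).

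Further glial and radial glial genes were read from a list of 30, of which 29 had intervals. Of its 199 tested intervals, 7 were lower in Nr6a1OE (against 1.26% of all intervals) and 0 higher (0.469%), and the list median was -0.025, against 0.0038 over all intervals. At an unadjusted p under 0.05, 24 were lower (against 6.87% of all intervals) and 8 higher (5.73%). Without mScarlet 1, Nr6a1OE 1 or Nr6a1OE 2, the number lower at an adjusted p under 0.05 was 4 in each case. Of the 128 tested intervals of the progenitor list, 4 were lower and 1 higher at that threshold. The intervals of the glial list summed to 3825 to 3887 CPM in Nr6a1OE and 3933 to 3989 CPM in mScarlet, with no overlap. The oligodendrocyte sums were apart the other way. A pair of intervals near Ptprz1, which encodes a receptor phosphatase of radial glia, was lower. The one 41.0 kb from the gene (chr6:22833641-22834942) held 4.97, 4.95 and 6.06 CPM in Nr6a1OE and 8.63, 9.76 and 10.2 CPM in mScarlet, with no overlap (log2 fold change -0.83, SE 0.16, edgeR adjusted p = 1.33e-04). The one inside the gene (chr6:22909082-22910276) had a log2 fold change of -0.56 (edgeR adjusted p = 0.0230).

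Id4, a helix-loop-helix inhibitor of differentiation, had a pair of lower intervals far from the gene. The one at 154.0 kb (chr13:48106916-48107303) held 1.28, 0.283 and 0.379 CPM in Nr6a1OE and 2.19, 1.89 and 1.87 CPM in mScarlet. These are few fragments, and the log2 fold change was -1.62 (SE 0.44, edgeR adjusted p = 0.0200). The one at 101.8 kb had a log2 fold change of -0.43 (edgeR adjusted p = 0.0488). The other 3 calls were inside Nes (-0.45), near Nfib (-0.85) and near Sox9 (-0.26). By gene sum, Id4 (-0.14), Nes (-0.14) and Ptprz1 (-0.15) were lower and none of the 29 was higher (edgeR adjusted p = 2.77e-04, 0.0144 and 0.0159). Of all gene sums 1.06% were lower and 0.873% higher.

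Among these 7 intervals the calls inside Nes and 41.0 kb from Ptprz1 held whichever library was left out, and DESeq2 made only the Nes call (adjusted p = 0.00163). With an assumed variation of 10% the Nes call was lost (edgeR likelihood ratio test, adjusted p = 0.09996). The 3 calls that held there were near Nfib, 41.0 kb from Ptprz1 and 154.0 kb from Id4. Near Nfib the call ended when Nr6a1OE 2 was left out (edgeR adjusted p = 0.0515). Leaving out mScarlet 1 or 3, or Nr6a1OE 2 or 3, ended the Id4 call at 154.0 kb (edgeR adjusted p of up to 0.183), whose log2 fold change was -2.52 without Nr6a1OE 1, and leaving out mScarlet 1 or 2, or Nr6a1OE 1, ended the one at 101.8 kb (up to 0.508, with a log2 fold change of -0.25 without Nr6a1OE 1). The call inside Ptprz1 ended without mScarlet 1 or 2, or Nr6a1OE 1 or 3 (up to 0.182), and the Sox9 call without mScarlet 3 or any one Nr6a1OE library (up to 0.364). The Id4 sum was lost without Nr6a1OE 1 (0.0553), the Nes sum without mScarlet 2, Nr6a1OE 1 or Nr6a1OE 2 (highest 0.137) and the Ptprz1 sum without mScarlet 2, mScarlet 3 or Nr6a1OE 2 (highest 0.220). With an assumed variation of 10% none of these sums passed. DESeq2 called the Id4 sum (adjusted p = 0.0283) and not the Nes sum (0.114). Ptprz1 is on chromosome 6, and its sum did not pass with chromosome medians removed. Neither did the Id4 interval at 101.8 kb (edgeR adjusted p = 0.0620). Within 100 kb the Id4 sum was -0.081 (edgeR adjusted p = 0.228). Over gene bodies alone the Id4 sum was -0.005 (0.981) and the Ptprz1 sum -0.067 (0.654), neither of which passed.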

How the data were processed

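ATAC-seq was analysed in 6 libraries, 3 of Nr6a1OE and 3 of mScarlet. The authors deposited raw fragment counts per consensus interval, made per the file headers with featureCounts 2.0.1 in paired mode, which counted a fragment for every interval holding at least 0.2 of it. The build is mm10, per the submitters' processing notes. The aligner, peak caller, duplicate removal and any Tn5 shift were not given in the sources used here.

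Intervals were filtered with filterByExpr (586 of 52223 removed), scaled by TMM and compared with edgeR 4.0.16 (glmQLFit, glmQLFTest, R 4.3.3), with Benjamini-Hochberg adjustment over all rows and a threshold of 0.05. The SE is the log2 fold change over the root of F. A gene sum adds the intervals of a gene. Genes came from RefSeq (GRCm38.p6, 21883 protein-coding).

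The members, gene lists, tests and alternatives were chosen with earlier results of these data known. Named intervals were, for each gene, the one over its start, the most accessible one and up to 3 of lowest unadjusted p under 0.05, and from the list of 30 glial genes the called ones. Likeness was read for the gene sum of lowest p, among genes with a mean sum of at least 0.5 of its own. Alternatives were DESeq2 1.42.0, other scalings and filters, a replicate block, chromosome medians removed, loess offsets, an assumed variation of 10%, fits without each library, other position limits and 3 added after seeing the data.

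Libraries of a group differed slightly beyond counting noise. The chi-square was 1.045 to 1.098 times its degrees of freedom, over intervals averaging 10 fragments or more. That excess cannot tell separate cultures from technical repeats. Each library was counted as 1 replicate, and the common variation that edgeR fitted beyond counting noise was 1.47%. For Nr6a1OE 1 and 3 the chi-square ratio was 0.997 at 100 fragments or more, and summing that pair is an added alternative.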

Additional observations from a re-analysis of the deposited data

How the results depend on the processing

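The Slc1a3 sum and its called interval were negative under every alternative tried, while both calls were lost under some of them. DESeq2 called 3 intervals higher and 97 lower, 4 gene sums higher and 13 lower (of the 1464 it gave an adjusted p, Slc1a3 and Zbtb20 among the 10 genes), 0 intervals of the 10 genes and 1 of the glial list, with Slc1a3 at -0.134 for the sum and -0.476 for the interval. An assumed variation of 10% called 19 intervals higher and 205 lower, and 1 gene sum higher and 5 lower. It called 0 intervals of the 10 genes and 3 of the list, and neither the Slc1a3 sum (-0.133) nor its interval (-0.476). Without each library in turn, 98 to 190 intervals were higher and 395 to 544 lower, 60 to 142 gene sums higher and 83 to 164 lower, 0 to 1 intervals of the 10 genes and 4 to 7 of the list lower. In those fits the Slc1a3 sum was -0.159 to -0.105 and its interval -0.561 to -0.398. Gene bodies alone gave 0 lower intervals, a median of -0.0112 and a Slc1a3 sum of -0.191, and without its called interval that sum was -0.108. With chromosome medians removed 94 gene sums were higher. For DESeq2, the assumed variation and the smaller sets of libraries or intervals, the cause of each change was not tested.

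Values near 0 changed sign without any call. Gene bodies alone gave -0.01 for the Aldh1l1 sum and 0.009 for Zbtb20. Chromosome medians removed gave -0.045 for the Gfap sum, -0.048 for its interval and 0.019 for the Aldh1l1 interval at 90575072. Loess offsets gave -0.016 and -0.004 for the Gfap sum and interval, -0.023 for the S100b sum, and -0.001 for the start intervals of Slc1a3 and of Aldh1l1. Leaving out libraries put the sums of Aldh1l1 at -0.058 to 0.049, Tnc at -0.094 to 0.019, Gfap at -0.017 to 0.052 and S100b at -0.095 to 0.117. For single intervals the ranges were -0.042 to 0.054 (Slc1a3 start), -0.124 to 0.097 (Aldh1l1 start), -0.185 to 0.137 (Aldh1l1 at 90575072), -0.267 to 0.22 (Aqp4 at 15281023), -0.018 to 0.049 (Gfap), -0.04 to 0.28 (S100b at 76259296) and -0.136 to 0.259 (Hopx upstream start).

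With the replicate number as a block (replicate block), 617 intervals were lower and 224 higher, 1 of the 10 genes' intervals was lower, and no named call changed. Deviations of same-numbered libraries had correlations of 0.0041, -0.0021 and -0.0062, within the range of the other pairs (-0.0094 to 0.012). Because the deviations are close to counting noise, this check cannot tell whether the numbers pair libraries. Depth limits the weak intervals most: fewer than 5 CPM were found in 30 of the 61.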
